A study of Gallus gallus with 6 samples.

Results

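Regions of histone H3 lysine 4 (H3K4) methylation that lie between genes, over 1 kb and at most 50 kb from the closest transcription start, were described in 3 chicken populations: embryonic stem cells (ESC), then primordial germ cells (PGC), then spermatogonial stem cells (SSC). They were chosen by position and width: chromosomes 1 to 10, a width under 1000 bp, a centre outside any annotated gene, and that distance to the start. The choice used no read count, enrichment or peak mark directly. The width, however, is that of the listed peak, and listing depended on peak calls and enrichment, as described below. The 3 deposited tables of regions held 867 such regions of 4801 for ESC against PGC, 972 of 5840 for ESC against SSC and 1110 of 4823 for PGC against SSC. Together these were 2087 distinct sets of coordinates of 10677 in the series, on the build galGal4, and they are called intergenic regions from here on. Their closest starts belonged to 1541 genes, of which 895 carried a symbol in the authors' annotation, and 362 of the genes had 2 or more separate stretches of intergenic signal.

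Methylation of H3K4 marks active regulatory DNA. Trimethylation is concentrated at promoters, and dimethylation extends to their flanks and to enhancers, which are distal elements that raise the transcription of genes on the same chromosome and often differ between cell types. Intergenic regions this near to a start are therefore a usual place to look for enhancers, although position by itself does not show that a region is one.

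The ESC were isolated from stage X blastoderms and cultured for 24 h with the growth factors LIF, bFGF and SCF. The PGC came from genital ridges of embryos incubated for 4.5 d (the stage label reads 72 h), and the SSC from testes of embryos incubated for 18.5 d (18 d in the label). The groups shared the antibody, which recognises di- and trimethylated H3K4, and differed in source tissue and stage. Differential purification is described for ESC, brief differential culture for PGC and culture for SSC, with no sort, so other cells of the tissue may remain. The files hold no transcript levels with which to check the cell types.

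Each population had 1 immunoprecipitated (IP) library and 1 input library, with totals between 19.15 M reads (SSC IP) and 26.03 M reads (ESC IP). No test between populations was possible, every comparison is between libraries, and all intervals are 95% intervals for counting error only, under which regions are counted as if independent. PCR reads without molecular identifiers are not independent molecules, so real errors are larger. Enrichment is the IP over the input of the same population, in RPM (reads per 1 M library reads) with 1 read added, and a region is called in a population where the authors marked it as a peak there. Every listed region was called in at least 1 population of its table and had enrichment above 1 in both. Intergenic regions held a median of 11 to 18 IP reads and 4 to 7 input reads, so single regions carry wide errors.

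Intergenic regions made up different shares of what was called in each population. Such shares depend on how many calls fall in the other position classes, given below. Among called regions on chromosomes 1 to 10 under 1 kb wide, they were 35.9% (33.3 to 38.5) of those called in PGC alone and 23.0% (20.97 to 25.1) of those called in ESC alone in the table of ESC against PGC. For ESC against SSC the shares were 34.1% (31.7 to 36.6) in SSC and 22.4% (20.6 to 24.3) in ESC. For PGC against SSC they were 35.4% (33.0 to 37.8) in PGC and 33.7% (31.4 to 36.1) in SSC, with overlapping intervals. Of the intergenic regions of ESC against PGC, 43.3% were called in ESC alone (against 57.4% of all listed regions) and 56.2% in PGC alone (against 42.2%). For ESC against SSC these were 45.6% in ESC (against 54.9%) and 50.4% in SSC (against 38.3%), and for PGC against SSC 51.0% in PGC (against 47.3%) and 48.5% in SSC (against 52.4%). As a share of all regions called in 1 population alone, of any width and chromosome, intergenic regions gave the same order. The shares were 24.0% and 24.8% in PGC, 21.9% and 21.3% in SSC, and 13.6% and 13.8% in ESC. Among intergenic regions with at least 20 IP reads in 1 population, the order of calls turned in every comparison. ESC alone then called 78.1% against 20.7% in PGC alone, and 75.4% against 16.8% in SSC alone.

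The classes on either side of the distance limits set the populations apart more widely. These shares too are of regions called in 1 population alone, on chromosomes 1 to 10 and under 1 kb wide. Regions within 1 kb of a start were 63.3% and 64.6% of those called in ESC alone. They were 14.4% and 17.2% of those called in SSC alone and 2.95% and 2.44% of those called in PGC alone. Intergenic regions over 50 kb from a start were 2.27% and 2.53% in ESC, 9.82% and 11.4% in SSC, and 21.4% and 20.4% in PGC. The band from 1 to 50 kb thus varied less between populations than the bands nearer to and farther from starts. Regions in genes over 1 kb from a start were 11.5% and 10.5% in ESC, 41.6% and 37.7% in SSC, and 39.8% and 41.8% in PGC. Away from starts, the intergenic band was thus the largest class in ESC, while regions in genes were the largest in SSC and PGC. The classes share a single total, so the large class near starts in ESC leaves less for the others. At the limits of the rule, the closest intergenic region lay 1007 bp from a start and the closest one left out 998 bp, and at the far end the values were 49928 bp and 50220 bp. In ESC against SSC, the farthest intergenic region, 49583 bp upstream of the adaptor gene GAB1, was called in ESC. Another 46 intergenic regions of 1006 bp or more met every criterion except width.

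**Figure D1:**
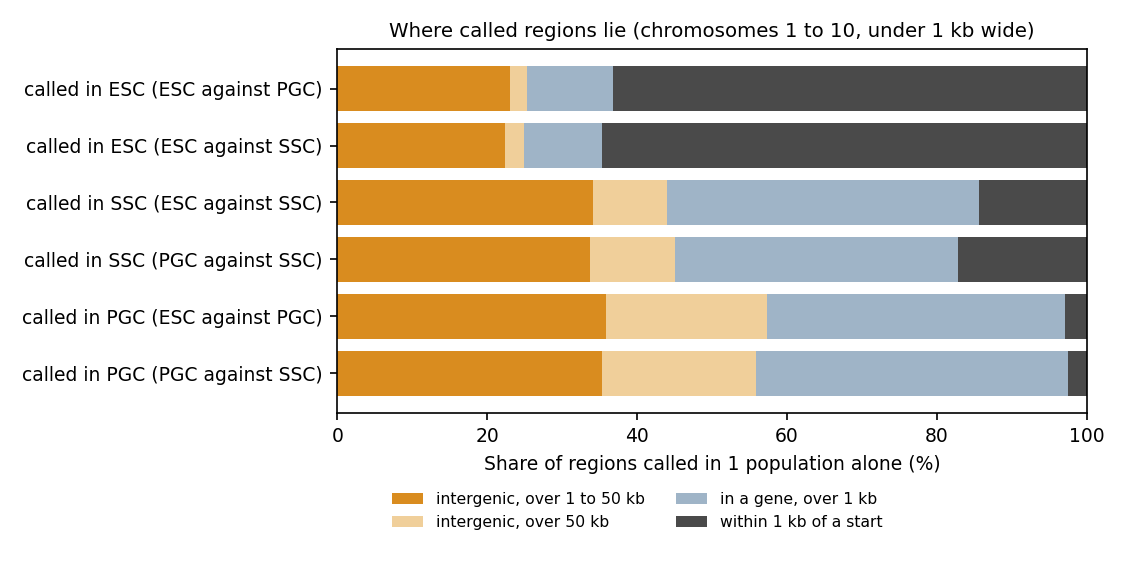
Stacked bars give, for regions called in 1 population alone on chromosomes 1 to 10 and under 1 kb wide, the share (%) in each of 4 position classes; each population appears once per table it entered. The intergenic class over 1 to 50 kb holds 22.4% to 35.9% of every bar, while the class within 1 kb of a start runs from 2.44% (PGC) to 64.6% (ESC).

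Called intergenic regions in ESC were the strongest and widest. Their median enrichment in ESC was 5.26 (quartiles 3.71 and 8.24, n = 375) in the table against PGC and 5.11 (n = 443) in the table against SSC, with median widths of 323 bp and 301 bp and 28 IP reads over 4 input reads in both. SSC-called intergenic regions had a median enrichment of 3.59 (n = 490) and 3.71 (n = 538), 15 IP reads over 4 input reads and widths of 232 bp and 229 bp. PGC-called ones had 2.82 in both tables (n = 487 and 566), with 16 and 15 IP reads over 6 input reads and widths of 225 bp and 221 bp. At least 20 IP reads were present in 86.4% and 85.3% of the ESC-called regions, 15.3% and 16.7% of the SSC-called and 17.5% and 13.4% of the PGC-called regions.

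Within a population, intergenic position went with modest differences in enrichment. ESC-called regions within 1 kb of a start had a median of 6.13 (interval of the median 5.88 to 6.32) in the table against PGC, above the 5.26 (4.86 to 5.54) of intergenic regions. ESC-called regions in genes over 1 kb from a start had 4.60 (3.99 to 4.98) and those over 50 kb away 4.06 (3.37 to 5.18). In SSC, regions near starts had 4.33 (4.02 to 4.64) against 3.71 (3.46 to 3.71) for intergenic regions in the table against PGC. PGC showed no such order, with 3.00 (2.78 to 3.39) near starts, 2.82 (2.74 to 2.93) in the intergenic band and 3.09 (2.96 to 3.29) beyond 50 kb.

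Distance from the start separated the libraries inside the band. PGC-called regions were the weakest and narrowest of the 3 sets, as given above. The part of IP strength in the distance, side and neighbour results was not tested. Among intergenic regions over 1 to 5 kb from a start, 57.8% (51.5 to 63.9) were called in ESC alone and 41.1% (35.02 to 47.4) in PGC alone, n = 258. At over 40 to 50 kb these shares were 18.0% (9.36 to 30.0) and 82.0% (70.02 to 90.6), n = 61. For PGC against SSC the PGC share went from 40.5% (34.8 to 46.4) at over 1 to 5 kb to 57.8% (46.9 to 68.1) at over 40 to 50 kb. For ESC against SSC the ESC share went from 50.7% (45.4 to 56.04) to 33.3% (20.8 to 47.9), with 46.2% in the bin before, so that its steps lay within counting error. The median distance was 7746 bp and 7623 bp in ESC, 9482 bp and 10286 bp in SSC, and 13779 bp and 14204 bp in PGC. Enrichment itself did not follow distance in the same way: ESC-called regions had a median of 4.98 at over 1 to 5 kb and 5.88 at over 40 to 50 kb, and PGC-called ones 2.82 and 2.78.

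**Figure D2:**
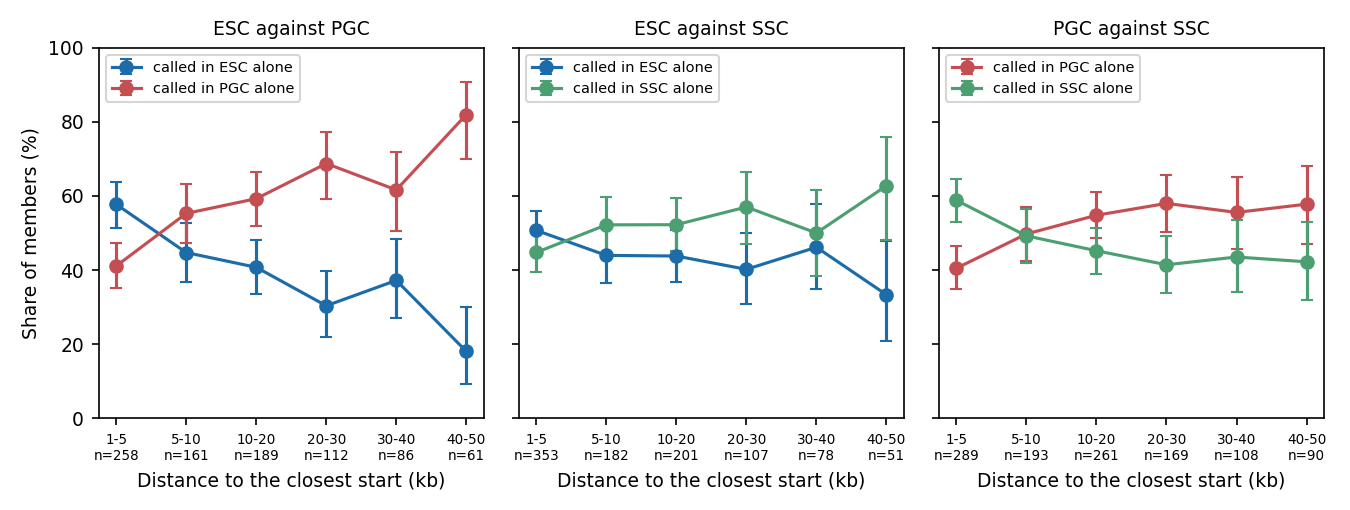
Points give the share (%) of intergenic regions called in each population alone, by distance to the closest start in kb, with exact 95% binomial intervals as bars and the number of regions (n) under each bin. In ESC against PGC the ESC share goes from 57.8% in the nearest bin to 18.0% in the farthest, and in PGC against SSC the PGC share goes from 40.5% to 57.8%.

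Most intergenic regions lay upstream of the closest start, and the side also differed between populations. Upstream positions were 87.2% (83.4 to 90.4) and 85.6% (81.9 to 88.7) of ESC-called regions, 80.0% (76.2 to 83.5) and 75.8% (71.99 to 79.4) of SSC-called regions, and 68.8% (64.5 to 72.9) and 71.2% (67.3 to 74.9) of PGC-called regions. Over 1 to 10 kb from the start the populations were alike, between 83.6% (PGC) and 87.8% (ESC) across all sets. Over 10 to 50 kb the ESC shares were 86.4% (79.9 to 91.4) and 82.6% (76.3 to 87.8), those of SSC 71.7% (65.5 to 77.4) and 66.3% (60.4 to 71.9), and those of PGC 58.9% (53.02 to 64.6) and 62.6% (57.3 to 67.7). Beyond 50 kb the upstream share was between 52.0% and 58.9% in all 3 populations. An intergenic region on the downstream side is past the 3' end of its closest gene, so the count of such regions also depends on gene length.

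Intergenic regions in ESC and SSC often had close neighbours, and those in PGC rarely did. Of the ESC-called ones, 40.8% (35.8 to 46.0) and 49.0% (44.2 to 53.7) had another region called in ESC at most 5 kb away, in the tables against PGC and SSC. For SSC the shares were 27.1% (23.3 to 31.3) and 23.2% (19.7 to 27.0), and for PGC 3.29% (1.89 to 5.28) and 4.06% (2.59 to 6.04). To the next region of the same population the median gap was 32759 bp and 9663 bp for ESC. It was 48465 bp and 57597.5 bp for SSC, and 135886 bp and 130844 bp for PGC. The numbers of regions called in each population were closer to each other, at 2774 and 3602 in ESC, 2635 and 2544 in SSC, and 2043 and 2296 in PGC.

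The neighbour was mostly intergenic too. Of the 153 ESC-called regions with a neighbour in the table against PGC, it was intergenic for 117 and within 1 kb of a start for 28. Among SSC-called regions it was intergenic for 109 of 133 and 104 of 125. For PGC it was intergenic for 13 of 16 and 17 of 23. The shares with a close neighbour were not particular to this intergenic band. Regions in genes over 1 kb from a start had 45.5% and 57.5% in ESC, 22.4% and 21.6% in SSC, and 2.78% and 3.59% in PGC. Regions within 1 kb of a start had 29.4% and 36.0%, 34.8% and 29.5%, and 7.5% and 10.3%. Intergenic regions over 50 kb away had 29.7% and 36.0%, 6.38% and 9.34%, and 2.06% and 3.06%. Restricting the count to regions of the 1 to 50 kb band with at least 20 IP reads gave 7.06% and 9.21% in PGC, 44.0% and 47.8% in SSC and 40.4% and 47.6% in ESC. The PGC and SSC shares were higher than over all their regions of that band and the ESC shares about unchanged. The part of read depth in the difference between populations was not tested.

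**Figure D3:**
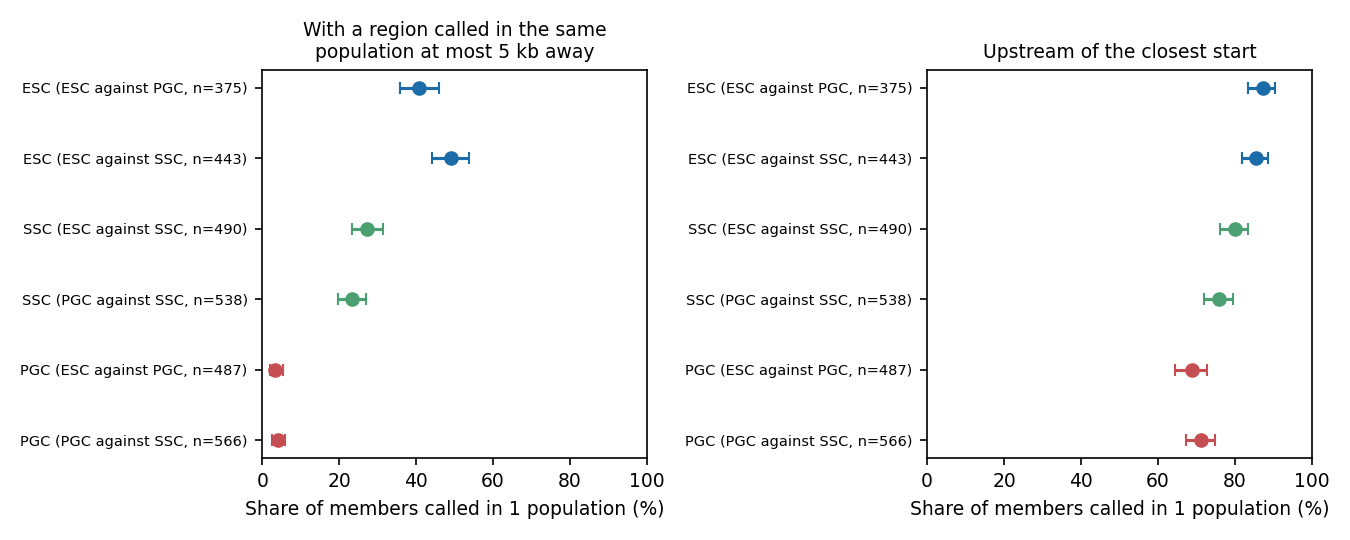
Left, share (%) of intergenic regions called in 1 population that have another region called in the same population at most 5 kb away; right, share (%) that lie upstream of the closest start. Points are shares with exact 95% binomial intervals, 1 per population and table. PGC sits at 3.29% and 4.06% on the left and 68.8% and 71.2% on the right, below both ESC points in either panel.

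Regions listed at the same coordinates in both tables of a population have counts in all 3 populations, so the levels of the other populations can be set side by side. The regions taken here were called in 1 population alone in both tables. Since the others did not call them, and since listing required enrichment above 1 in each, their levels were limited by the calls and by listing, and they are given as a description. They numbered 302 for ESC (80.5% and 68.2% of the ESC-called intergenic regions in its 2 tables), 271 for PGC (55.6% and 47.9%) and 278 for SSC (56.7% and 51.7%).

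ESC-called intergenic regions carried more signal in SSC than in PGC. Summed over the 302 regions, which covered 113.2 kb, the ESC libraries held 10852 IP and 1232 input reads, an enrichment of 6.75 (6.37 to 7.16). The SSC libraries held 3065 and 1493 reads there, an enrichment of 2.54 (2.39 to 2.70), and the PGC libraries 2333 and 1680 reads, 1.71 (1.61 to 1.83). The summed log2 ratio of PGC over SSC was -0.57 (-0.69 to -0.44) with the median over regions at -0.48 (-0.64 to -0.38). SSC was the higher of the pair at 215 of the 302 regions, and the 2 differed by at least 2-fold in favour of SSC at 92 and in favour of PGC at 10. Over 1 to 10 kb the enrichments were 2.52 (2.32 to 2.74) in SSC and 1.71 (1.57 to 1.86) in PGC, and over 10 to 50 kb 2.56 (2.33 to 2.81) and 1.72 (1.56 to 1.89), and the difference between the distance bands was not tested. ESC-called regions within 1 kb of a start had 2.84 (2.74 to 2.94) in SSC and 1.75 (1.69 to 1.82) in PGC, with a log2 ratio of -0.70 (-0.77 to -0.62) whose interval overlapped that of the intergenic regions. The same ratio was -0.50 (-0.67 to -0.33) at ESC-called regions in genes over 1 kb from a start. It was -0.45 (-0.86 to -0.03) at intergenic ones over 50 kb away. The lower level in PGC was thus not particular to this band, and the part of IP strength in it was not tested. Of the regions that another population had also called, only 10 were listed as ESC calls at identical coordinates in both tables. With these 10 kept, the 312 intergenic regions gave 2.64 (2.49 to 2.81) in SSC and 1.69 (1.59 to 1.79) in PGC, a log2 ratio of -0.65 (-0.77 to -0.52). This alternative was added after the data were seen. The 10 regions enter because another population called them, so that choice shapes the ratio, and the alternative is no check on it.

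PGC-called intergenic regions had similar summed enrichments in ESC and SSC. Over 271 regions and 65.1 kb, enrichment was 2.83 (2.68 to 2.98) in PGC, 1.56 (1.46 to 1.67) in ESC and 1.62 (1.52 to 1.74) in SSC. The summed log2 ratio of ESC over SSC was -0.05 (-0.19 to 0.08), while the median over regions was -0.18 (-0.27 to -0.05), so the sum and the median differed in whether their interval held 0. The inputs at these regions stood at 67.3 RPM in ESC, 81.9 in PGC and 65.8 in SSC. None of the regions that another population had also called was listed as a PGC call at identical coordinates in both tables. Keeping such regions therefore left the number at 271 and could not change these values.

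At SSC-called intergenic regions the summed enrichment of ESC lay slightly above that of PGC, while the median over regions was not distinguishable from 0. Over 278 regions and 74.4 kb, enrichment was 3.97 (3.74 to 4.21) in SSC, 1.72 (1.62 to 1.82) in ESC and 1.49 (1.41 to 1.58) in PGC. The summed log2 ratio of ESC over PGC was 0.20 (0.08 to 0.32) but -0.07 from the IP libraries alone. The median over regions was 0.09 (-0.009 to 0.198), with ESC the higher at 150 regions and PGC at 128. The inputs stood at 76.6 RPM in ESC, 92.5 in PGC and 61.6 in SSC, the lowest of the 3. Over 1 to 10 kb the enrichment was 1.83 (1.69 to 1.99) in ESC and 1.49 (1.38 to 1.60) in PGC. Over 10 to 50 kb it was 1.59 (1.46 to 1.74) and 1.50 (1.38 to 1.63), with overlapping intervals.

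**Figure D4:**
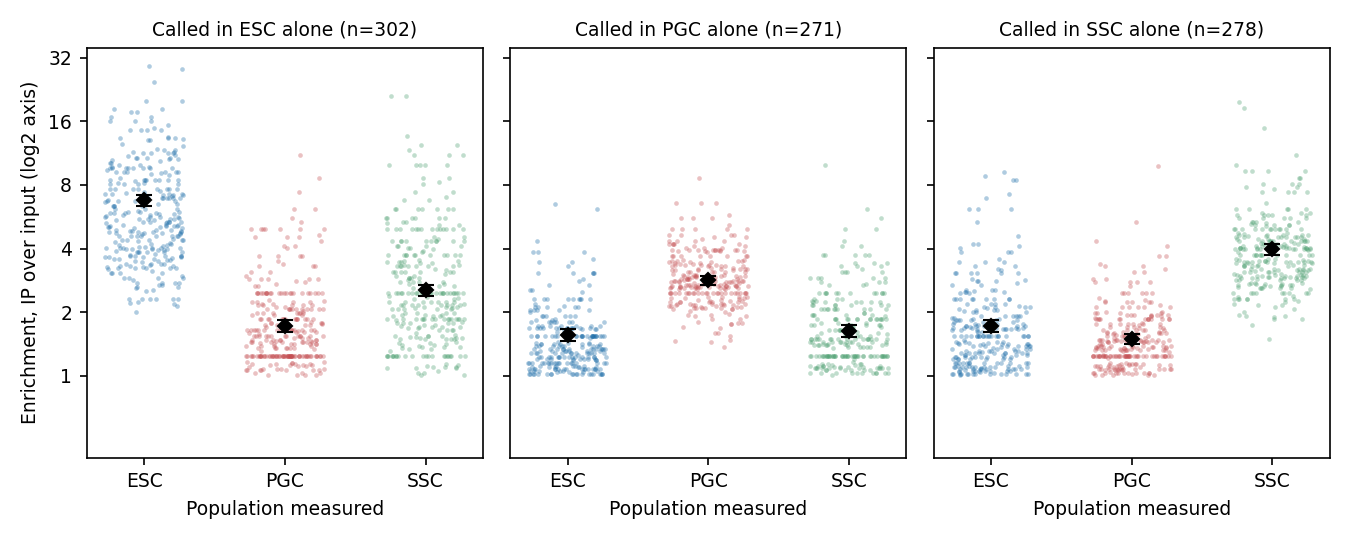
Each dot is 1 intergenic region at identical coordinates in both tables of the population that called it, with its enrichment (IP over input, log2 axis) in ESC, PGC and SSC; diamonds are enrichments of the summed reads with 95% counting intervals, in many cases smaller than the symbol. At the 302 ESC-called regions SSC (2.54) lies above PGC (1.71), while at the PGC-called and SSC-called regions the 2 other populations lie between 1.49 and 1.72.

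The comparison of ESC with PGC bears on the step from blastoderm cells to germ cells. A difference of 2-fold or more favoured ESC at 297 of 867 intergenic regions (34.3%, against 48.4% of all 4801 regions) and PGC at 267 (30.8%, against 23.5%). With the counting interval off 0 as well, 114 were higher in ESC (13.1%, against 23.7%) and 22 in PGC (2.54%, against 2.1%). After centring on the median of all regions the shares at 2-fold were 17.2% for ESC and 52.1% for PGC, and those with the interval off 0 were 3.0% and 27.1%. The order of the directions thus turned under centring. The IP libraries alone gave 36.1% and 33.1% at 2-fold, and 33.7% and 27.1% with the interval off 0. Intervals from the IP libraries alone leave out the counting error of the inputs and are narrower by construction. Their shares off 0 are therefore not comparable with the 13.1% and 2.54% above. The median log2 ratio was -0.23 (-0.42 to -0.06), against 0.90 over all regions. Within a call the gap was small, at 1.64 for ESC-called intergenic regions and 1.88 for all ESC-called regions, and at -1.03 and -1.07 for PGC-called ones. The sign of the median depended on which regions were taken: it was 1.49 with at least 20 IP reads in 1 population, 1.58 at widths of 300 bp or more and 0.41 over 1 to 10 kb from a start.

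The firmest regions named for each comparison are those whose interval lay farthest from 0. They were also called in the population that was higher, with at least 3 input reads there. Since the call and the ratio rest on the same libraries and the extremes were picked, these ratios are probably too far from 0. They are given as a description. In the direction of ESC the regions named lay upstream of genes, with 1 past a gene's end. One on chromosome 7, 34000207 to 34000859, 1055 bp upstream of ACVR2A, a type II receptor for activin, held 97 IP reads over 3 input reads in ESC and 12 over 14 in PGC (log2 ratio 4.13, interval 2.34 to 5.93). Another, on chromosome 8, 13985388 to 13986327, lay 31246 bp past the start of LRRC8C, a subunit of a volume-regulated anion channel, on the side beyond its end. It held 109 IP over 4 input reads in ESC against 13 over 13 in PGC, a ratio of 3.77 (2.09 to 5.45). Enrichment in PGC was 1.07 at ACVR2A and 1.23 at LRRC8C, near the limit of listing.

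Upstream of ACTG1, which encodes a cytoplasmic actin, a region at 1115 bp had 78 IP over 5 input reads in ESC against 8 over 10 in PGC. At 3202 bp upstream of the calmodulin gene CALM the counts were 142 over 13 against 18 over 19. For TRIP12, a ubiquitin ligase gene, the region lay 21673 bp upstream and held 123 IP over 8 input reads in ESC against 18 over 15 in PGC. Their log2 ratios were 3.32, 2.74 and 2.85, with intervals that began at 1.58, 1.54 and 1.48. ACVR2A also had a PGC-called region 11044 bp upstream, with 24 IP reads over 8 input reads in PGC against 12 over 5 in ESC, whose ratio of -1.05 (-2.82 to 0.73) was not distinguishable from 0.

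In the direction of PGC the intervals came close to 0. The region 1392 bp upstream of MIB1, a ubiquitin ligase that acts on Notch ligands, on chromosome 2, 102137654 to 102137990, held 23 IP reads over 7 input reads in PGC and 19 over 14 in ESC (log2 ratio -1.86, interval -3.36 to -0.35). The other 4 of the 5 firmest regions had closest genes without a symbol. On chromosome 2, 134727260 to 134727460, the counts were 17 over 3 in PGC against 13 over 9 in ESC, a ratio of -2.37 (-4.32 to -0.42). On chromosome 3, 76636929 to 76637402, they were 29 over 9 against 16 over 12, a ratio of -1.88 (-3.35 to -0.42).

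The comparison of ESC with SSC spans blastoderm and late embryonic testis. A difference of 2-fold or more favoured ESC at 249 of 972 intergenic regions (25.6%, against 35.1% of all 5840 regions) and SSC at 331 (34.1%, against 26.3%). With the interval off 0 these were 63 (6.48%, against 12.0%) and 56 (5.76%, against 4.83%). Centring on all regions gave 18.8% and 41.9% at 2-fold, and the IP libraries alone 31.8% and 20.2%, which turned the order. For intervals off 0, centring gave 3.6% and 12.8% and the IP libraries alone 28.2% and 14.2%, the latter from narrower intervals without the counting error of the inputs. The median log2 ratio was -0.29 (-0.48 to -0.11), against 0.31 over all regions, and 0.85 among regions with at least 20 IP reads in 1 population.

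In the direction of ESC, a region on chromosome 4, 76084923 to 76085411, lay 6745 bp upstream of Prom1, the gene of the membrane glycoprotein prominin-1, and held 50 IP reads over 3 input reads in ESC against 8 over 10 in SSC. Its log2 ratio was 3.27 (1.33 to 5.21). A region 1402 bp upstream of ZBTB2, a zinc finger gene, held 65 IP over 8 input reads in ESC and 11 over 13 in SSC (log2 ratio 2.41, interval 0.91 to 3.91).

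Among regions with at least 3 input reads in SSC, the interval farthest from 0 in the direction of SSC was found 12133 bp upstream of CHD2, a chromatin remodeller gene, on chromosome 10, 14100357 to 14100924. That region held 41 IP reads over 10 input reads in SSC and 25 over 17 in ESC (log2 ratio -2.09, interval -3.38 to -0.80). Past the end of BTG1, a gene that restrains proliferation, a region 2963 bp from the start held 83 IP over 22 input reads in SSC and 44 over 23 in ESC (log2 ratio -1.65, interval -2.63 to -0.67). Upstream of QKI, an RNA-binding protein gene, by 2660 bp the counts were 28 over 6 against 16 over 11, and upstream of HELB, a DNA helicase gene, by 4586 bp they were 18 over 3 against 15 over 11. Their ratios were -2.24 (-3.84 to -0.64) and -2.52 (-4.42 to -0.63). The SSC enrichment of these 4 regions lay between 4.52 and 5.87 and that of ESC between 1.02 and 1.44.

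PGC against SSC compared the early and the late germline population. A difference of 2-fold or more favoured PGC at 221 of 1110 intergenic regions (19.9%, against 21.2% of all 4823 regions) and SSC at 393 (35.4%, against 37.8%), shares close to the background. With the interval off 0 they were 20 (1.80%, against 1.8%) and 82 (7.39%, against 9.58%). The order did not hold under other scalings: centring gave 33.4% and 22.2% at 2-fold, and the IP libraries alone 25.8% and 15.8%. The shares with an interval off 0 were 6.13% and 2.07% after centring. They were 14.1% and 9.91% from the IP libraries alone, whose narrower intervals leave out the counting error of the inputs. The median log2 ratio was -0.27 (-0.44 to -0.08), against -0.42 over all regions, and changed sign to 0.15 after centring and to 0.13 from the IP libraries alone.

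In the direction of SSC, 1 region 2190 bp upstream of CPT1A, the gene of an enzyme that brings fatty acids into mitochondria, on chromosome 5, 15999905 to 16000459, held 36 IP reads over 5 input reads in SSC and 11 over 13 in PGC (log2 ratio -2.85, interval -4.52 to -1.18). A region 10180 bp upstream of NDP, which encodes norrin, a ligand of a Frizzled receptor, held 33 IP over 6 input reads in SSC and 13 over 14 in PGC (log2 ratio -2.38, interval -3.96 to -0.81). A region on chromosome 10, 16497794 to 16498390, with 37 IP over 8 input reads in SSC, was among the 5 firmest in both tables of SSC, with 32 over 17 in ESC and 15 over 17 in PGC, but its closest gene has no symbol.

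Higher in PGC was a region on the far side of CAVIN2, a caveola protein gene, 31610 bp from its start, with 17 IP reads over 3 input reads in PGC and 7 over 8 in SSC. Another lay 7873 bp upstream of the peroxisome gene PEX26 and held 23 IP over 7 input reads in PGC against 9 over 11 in SSC. The log2 ratios were 2.34 (0.26 to 4.42) and 1.85 (0.17 to 3.52), with intervals that began close to 0.

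**Figure D5:**
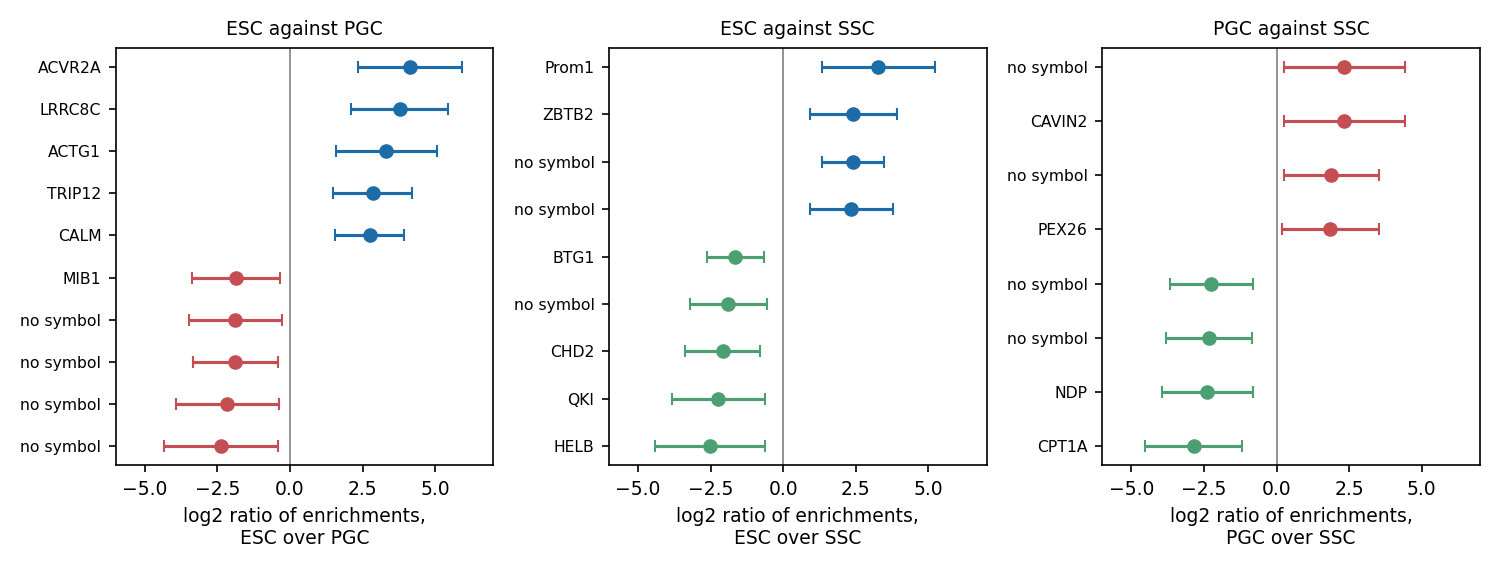
Points are log2 ratios of enrichment for up to 5 intergenic regions per direction among those whose counting interval lies farthest from 0 and whose higher population has at least 3 input reads, 1 panel per comparison, labelled by the closest gene, with 95% counting intervals as bars. Positive values are higher in the first population. Each region was also called where it was higher, and was picked for its ratio. Intervals for PGC-high regions come nearest to the grey line at 0, beginning at 0.17 to 0.26 in PGC against SSC.

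Calls shared by 2 populations were rare among intergenic regions, as they were among all regions. ESC and SSC shared 39 of 972 (4.01%, 2.87 to 5.44, against 6.8% of all 5840 regions), with a median width of 532 bp and median enrichments of 4.82 in ESC and 4.17 in SSC. ESC and PGC shared 5 of 867 (0.577%, 0.188 to 1.34, against 0.333% of all 4801 regions) and PGC and SSC 6 of 1110 (0.541%, 0.199 to 1.17, against 0.352% of all 4823 regions). Among the shared ESC and SSC regions, one 9607 bp upstream of AKIRIN2, a nuclear protein gene, held 111 IP reads over 14 input reads in ESC against 50 over 10 in SSC, with enrichments of 5.72 and 5.73. The same coordinates were listed as an ESC call against PGC, where 26 IP over 23 input reads of PGC gave 1.39 and a log2 ratio of 2.04 (0.93 to 3.15). Upstream of ANAPC10, a gene of the anaphase-promoting complex, by 2423 bp the counts were 114 over 12 in ESC against 34 over 13 in SSC. At ACVR2A the call was shared as well, over 34000196 to 34000859, with enrichments of 19.0 in ESC and 6.92 in SSC.

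Of the 5 shared by ESC and PGC, 1 near HARBI1, a transposase-derived gene, held 42 IP reads over 10 input reads in ESC against 20 over 13 in PGC. One on chromosome 1, 175830442 to 175831241, 37211 bp upstream of a gene without a symbol, had the highest enrichments of the 5, at 4.60 in ESC and 3.21 in PGC. A pair on chromosome 1 between 100370897 and 100408969 had 95 and 131 PGC IP reads over 72 and 124 PGC input reads, in no more than 272 bp each. Their enrichments in PGC were 1.62 and 1.30, so reads were numerous in the input as well as in the IP. Input reads of 40 or more in PGC were found at 9 of 867 and 13 of 1110 intergenic regions.

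Several genes had many intergenic regions, counted by distinct coordinates, some of which overlap. NR2F2, a nuclear receptor gene known in mammals from mesenchymal cells, had the most, with 9 distinct regions between 5120 bp upstream and 10849 bp past its start, all called in SSC and none in ESC or PGC. The highest SSC enrichment among them was 11.7, at 18 IP reads over 1 input read, and 2 of 8 had an interval off 0 against ESC, ending at -0.05 and -0.00324. Of all regions, 38.3% were called in SSC alone in ESC against SSC and 52.4% in PGC against SSC. At least 2-fold higher in SSC than in ESC with the interval off 0 were 4.83% of all regions. CHD2 had 8 regions in 7 separate stretches, 2 called in ESC, 1 in PGC and 5 in SSC, all upstream. For comparison, ESC alone called 57.4% and 54.9% of all regions in its 2 comparisons, and PGC alone 42.2% and 47.3%. At 13043 bp upstream of CHD2 an ESC-called region held 42 IP reads over 11 input reads in ESC and 19 over 23 in PGC (log2 ratio 1.42, interval 0.16 to 2.68), next to the SSC-called one described above.

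AKIRIN2 had 6 regions in 5 separate stretches between 6848 bp and 24487 bp upstream. All were called in SSC, and 2 of these also in ESC. Over all regions, 38.3% (ESC against SSC) and 52.4% (PGC against SSC) were called in SSC alone, and 6.8% and 0.352% in both populations. The farthest AKIRIN2 region held 18 IP reads over 1 input read in SSC and 7 over 7 in PGC, a log2 ratio of -3.25 (-5.78 to -0.72). BCL6, a transcriptional repressor gene, also had 6, in 4 separate stretches. An ESC-called region 1670 bp upstream of it held 46 IP over 3 input reads in ESC and 10 over 10 in PGC (log2 ratio 2.87, interval 0.96 to 4.77), and a longer form of it was called in SSC as well, with enrichments of 6.90 in ESC and 4.17 in SSC. A BCL6 region 47981 bp upstream was called in PGC, with a ratio to ESC of -1.37 (-3.42 to 0.67). The other 3 genes with 6 regions have no symbol. TSHZ1, a zinc finger transcription factor gene picked out after its counts were seen, had 4 intergenic regions, all 4 called in PGC, and each of their intervals included 0. Of all regions, 42.2% were called in PGC alone in ESC against PGC and 47.3% in PGC against SSC.

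Members of known pathways were few among the closest genes, and were read by list against the medians of all intergenic regions given above. Early lineage regulators had 9 regions at 5 genes in ESC against PGC, with a median of 1.12. Of these, 7 were called in ESC and 2 in PGC (against 57.4% and 42.2% of all regions called in 1 population alone). Past 2-fold were 7 in favour of ESC (against 34.3% of intergenic regions and 48.4% of all regions). In favour of PGC there were 0 (against 30.8% and 23.5%). An interval off 0 was found for 1 of the 9, in favour of ESC (against 13.1% of intergenic regions and 23.7% of all regions). In ESC against SSC the list had 5 regions at 3 genes, with a median of 0.65. Of these, 4 were called in ESC and 1 in SSC (against 54.9% and 38.3% of all regions called in 1 population alone). Past 2-fold were 2 in favour of ESC and 1 in favour of SSC (against 35.1% and 26.3% of all regions). EOMES, a regulator of mesendoderm, had an ESC-called region 1424 bp upstream with 24 IP reads over 1 input read in ESC, 6 over 5 in PGC and 4 over 4 in SSC. The ratios were 2.73 (0.13 to 5.34) and 2.95 (0.21 to 5.70). Farther upstream of EOMES, at 6506 bp, a PGC-called region had 16 IP over 6 input reads in PGC and 16 over 5 in ESC (log2 ratio -0.46, interval -2.31 to 1.38), and at 45658 bp an SSC-called one had -2.50 (-5.04 to 0.05).

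For MSX1, a homeobox gene, the ESC-called region 3644 bp past the start held 54 IP over 12 input reads in ESC against 16 over 13 in PGC, and a PGC-called region at 7530 bp held 22 over 10 in PGC against 17 over 9 in ESC. The ratios of 1.11 (-0.23 to 2.46) and -0.90 (-2.43 to 0.62) were not distinguishable from 0. At TFAP2A, an activator of ectoderm and neural crest genes, a region 1086 bp upstream had 16 IP reads over 0 input reads in ESC. With 3 set in place of that input's count plus 1, the enrichment in ESC was 2.11-fold that of PGC and 3.51-fold that of SSC. These folds are not lower limits, since the counting intervals of both log2 ratios included 0 (-0.90 to 6.23 and -0.13 to 6.93).

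In the somatic gonad list, all 12 regions of ESC against SSC at 3 genes (NR2F2, GATA4 and INHBB) and all 8 of PGC against SSC were called in SSC. The regions of 1 gene, NR2F2, made up 8 of the 12 and 5 of the 8, so the regions of the list are not independent. For comparison, 50.4% and 48.5% of all intergenic regions were called in SSC alone, and 38.3% and 52.4% of all regions. Of the 12 and the 8 regions, 5 and 4 were at least 2-fold higher in SSC (against 26.3% and 37.8% of all regions). An interval off 0 was found for 2 and 0 (against 4.83% and 9.58% of all regions in that direction). GATA4, a regulator of gonad and heart formation, held 42 IP reads over 7 input reads in SSC against 25 over 5 in ESC at 1366 bp upstream, a log2 ratio of -1.0 (-2.68 to 0.68). A PGC-called GATA4 region 33060 bp upstream held 27 IP over 9 input reads in PGC and 14 over 8 in ESC (log2 ratio -1.44, interval -3.02 to 0.15).

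INHBB, an inhibin and activin subunit gene, had one at 1446 bp with 62 IP reads over 24 input reads in SSC, 26 over 10 in ESC and 26 over 20 in PGC. Its ratios were -0.73 (-1.94 to 0.48) and -0.97 (-2.03 to 0.09). Of the 24 germ cell and meiosis genes, 3 had an intergenic region: DMC1, a meiotic recombinase, SYCP3, of the synaptonemal complex, and the chemokine receptor CXCR4. All 3 were called in SSC and had 13 to 16 SSC IP reads, and no interval was off 0. Of all regions, 38.3% were called in SSC alone in ESC against SSC and 52.4% in PGC against SSC. At least 2-fold higher in SSC with the interval off 0 were 4.83% and 9.58% of all regions.

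Wnt pathway genes had 6 regions in PGC against SSC, with a median of -1.38. Of these, 5 were called in SSC (against 48.5% of intergenic regions and 52.4% of all regions called in SSC alone). At least 2-fold higher in SSC were 4 (against 35.4% of intergenic regions and 37.8% of all regions). An interval off 0 was found for 2. The shares 2-fold higher in SSC with such an interval were 7.39% of intergenic regions and 9.58% of all regions. The region 2683 bp from the start of FZD1, a Wnt receptor gene, held 23 IP reads over 1 input read in SSC, 11 over 12 in PGC and 10 over 6 in ESC. Its ratio to PGC was -3.70 (-6.07 to -1.33), and -1.08 from the IP libraries alone. DKK2, a secreted Wnt modulator gene, had a PGC-called region 39289 bp upstream and an SSC-called one at 32194 bp, with ratios of 0.72 (-1.15 to 2.59) and -1.17 (-2.90 to 0.56).

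TGF-beta and BMP genes had 7 regions in ESC against PGC, with a median of 0.31, and 2 were at least 2-fold higher in each direction. Over all regions these shares were 48.4% for ESC and 23.5% for PGC. They had 7 regions in ESC against SSC, 2 at least 2-fold higher in ESC (against 35.1% of all regions) and 0 in SSC (against 26.3%). SMAD1, which carries BMP signals to the nucleus, had an ESC-called region 20493 bp upstream with 53 IP reads over 5 input reads in ESC against 19 over 6 in SSC, and an SSC-called one at 19555 bp with 18 over 7 in SSC against 14 over 5 in ESC. The ratios were 0.97 (-0.77 to 2.70) and -0.62 (-2.43 to 1.20). FGF and MAPK genes had 8 regions in PGC against SSC, 4 called in each population, and 0 of their intervals were off 0. Of all regions in that comparison, 47.3% were called in PGC alone and 52.4% in SSC alone. At least 2-fold higher with the interval off 0 were 1.8% in favour of PGC and 9.58% in favour of SSC.

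For the remaining lists the counts were small. They stand beside 38.3% (ESC against SSC) and 52.4% (PGC against SSC) of all regions called in SSC alone. At least 2-fold higher in SSC with the interval off 0 were 4.83% and 9.58% of all regions. Fibroblast and mesenchymal genes had 4 regions in PGC against SSC and 3 in ESC against SSC, Notch genes 2 in ESC against SSC (JAG1 and NOTCH2, both called in SSC), and the neural list 2 in PGC against SSC, both upstream of the homeobox gene DLX6 and called in SSC, with 1 interval off 0 (log2 ratio -2.70, -5.27 to -0.13, at 12 IP reads over 1 input read in SSC). Pluripotency genes had 1, upstream of LIN28B by 1124 bp, with 37 IP reads over 10 input reads in ESC against 5 over 3 in SSC. Its log2 ratio of 0.51 (-1.55 to 2.58) was not distinguishable from 0. The housekeeping list had 1 gene, HPRT1, with 14 IP reads over 1 input read in SSC and a log2 ratio of ESC over SSC of -3.11 (-5.81 to -0.41). The spermatogonial list had FGFR3 alone, called in PGC (against 42.2% and 47.3% of all regions called in PGC alone), while blood and endothelial genes had 0. Lists whose regions were all called in one population favour that population by the call itself, so these counts are not independent of it.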

How the data were processed

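Chromatin immunoprecipitation sequencing was measured in 6 libraries, 1 IP and 1 input for each of 3 populations. The submitters' processing notes name the build galGal4 and the tools BWA, MACS2, FastQC and CASAVA 1.8. Peak settings and the counting step are not given in the sources used here. Per the file headers, the deposited tables hold whole-number counts per region and library, RPM values, a fold enrichment (the ratio of IP to input RPM), a log2 ratio of 2 enrichments and the authors' peak marks. RPM equalled the count plus 1 over the library total for 100% of values within 0.05 reads.

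Repeated rows of a region were collapsed, and a region was kept as intergenic only if every row placed its centre outside a gene. Enrichments and log2 ratios were recomputed, with 95% counting intervals by the delta method on count plus 1. Shares have exact Clopper-Pearson intervals, medians binomial order intervals, and sums of reads Poisson-based intervals without an added count. The procedure was checked on simulated counts. Regions named in the text were, per table and direction, the 5 with the interval end nearest 0 farthest from 0, called where higher and with at least 3 input reads there. Also named were regions called in 2 populations, genes with the most regions (7 after ties), and up to 3 genes per list of 13. A few regions that met this rule are not reported here. Members, lists and rules were chosen with earlier results of these data known. Alternatives were other pseudocounts (5 and 0.5), IP alone, centring, 20 IP reads, width and distance limits. Python 3.11.15, pandas 2.3.3, NumPy 2.4.6, SciPy 1.17.1 and matplotlib 3.10.9 were used.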

Additional observations from a re-analysis of the deposited data

How the results depend on the processing

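No paired analysis was possible because each population has 1 IP and 1 input library and no replicate, and for the same reason no replicate could be left out. Values are given for ESC and PGC, then ESC and SSC, then PGC and SSC. With at least 20 IP reads in 1 population, regions called in 1 population alone were 78.1% and 20.7%, then 75.4% and 16.8%, then 44.2% and 52.9%. Regions at least 2-fold higher were 63.4% and 13.3%, then 44.9% and 12.6%, then 17.4% and 40.1%. With the interval off 0 they were 26.7% and 2.17%, then 12.4% and 4.79%, then 2.91% and 23.8%, and the median log2 ratios were 1.49, 0.85 and -0.63. At widths of 300 bp or more, regions called in 1 population alone were 74.3% and 24.5%, then 61.4% and 29.6%, then 33.9% and 64.0%. Regions at least 2-fold higher were 65.1% and 15.6%, then 41.6% and 22.5%, then 13.4% and 49.5%. Counting intervals were off 0 for 36.4% and 1.86%, then 14.5% and 7.67%, then 1.61% and 22.0%, and the median log2 ratios were 1.58, 0.73 and -0.98. Over 1 to 10 kb from a start, regions called in 1 population alone were 52.7% and 46.5%, then 48.4% and 47.3%, then 44.2% and 55.0%. Regions at least 2-fold higher were 40.3% and 25.8%, then 26.7% and 30.7%, then 19.3% and 40.9%. With the interval off 0 they were 15.5% and 2.63%, then 6.54% and 5.23%, then 2.07% and 9.13%, and the median log2 ratios were 0.41, -0.15 and -0.63. Over 10 to 50 kb, regions called in 1 population alone were 34.4% and 65.2%, then 42.1% and 54.2%, then 56.2% and 43.5%. Regions at least 2-fold higher were 28.6% and 35.5%, then 24.3% and 38.2%, then 20.4% and 31.2%. Counting intervals were off 0 for 10.9% and 2.46%, then 6.41% and 6.41%, then 1.59% and 6.05%, and the median log2 ratios were -0.65, -0.48 and 0.00.

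With a pseudocount of 5, regions at least 2-fold higher were 25% and 29.2%, then 14.5% and 30.8%, then 9.19% and 20.9%. With the interval off 0 they were 9.0% and 3.0%, then 4.42% and 5.45%, then 0.45% and 2.97%, and the median log2 ratios were -0.50, -0.29 and -0.15. With a pseudocount of 0.5 no share or median left its counting interval. From the IP libraries alone, regions at least 2-fold higher were 36.1% and 33.1%, then 31.8% and 20.2%, then 25.8% and 15.8%. With the interval off 0 they were 33.7% and 27.1%, then 28.2% and 14.2%, then 14.1% and 9.91%, and the median log2 ratios were -0.60, -0.06 and 0.13. These intervals leave out the counting error of the inputs, so their shares off 0 are not comparable with the main ones. After centring on the median of all regions, regions at least 2-fold higher were 17.2% and 52.1%, then 18.8% and 41.9%, then 33.4% and 22.2%. Counting intervals were off 0 for 3.0% and 27.1%, then 3.6% and 12.8%, then 6.13% and 2.07%, and the median log2 ratios were -1.13, -0.60 and 0.15.

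Over all listed regions in place of chromosomes 1 to 10 under 1 kb wide, the intergenic shares of regions called in 1 population alone were 13.6% and 24.0%, then 13.8% and 21.9%, then 24.8% and 21.3%. Among alternatives chosen after seeing the data, a gap of at most 2 kb gave neighbours to 37.6% and 0.821%, then 46.5% and 19.2%, then 1.24% and 16%, a gap of at most 10 kb to 42.4% and 5.34%, then 50.3% and 32.0%, then 6.54% and 29.4%, and at least 20 IP reads to 40.4% and 7.06%, then 47.6% and 44.0%, then 9.21% and 47.8%, with PGC lowest in each. At ESC-called regions the log2 ratio of PGC over SSC kept its sign, between -0.65 and -0.47, in the 6 alternatives tried. These include the one that keeps regions another population had called, whose ratio is shaped by that choice. At SSC-called regions ESC over PGC was -0.07 from IP alone. Of the 186 summary values under other settings, 67 stayed within the counting interval of the main value and 111 moved outside it. The other 8 changed sign where the main interval excluded 0. Single regions have wider intervals. Of the 352 values of named regions under a pseudocount of 5 or from IP alone, 344 stayed within the counting interval of the main value, 8 did not, and none with an interval off 0 changed sign. Settings that keep only deeper, wider or nearer regions change the makeup of the set by construction, and centring shifts all ratios alike. Intervals from the IP libraries alone are narrower by construction. The cause of the other shifts was not tested. There is 1 library of each kind per population, so the spread between samples is unknown. Depth also limits single regions: median inputs are 4 to 7 reads, and 1 read changes an enrichment most where the input is near 0. The tables leave out any region whose enrichment was 1 or less in either population compared.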
